A study of Homo sapiens with 6 samples.

Results

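The genes described here are 10 readouts of the RAS-RAF-MEK-ERK pathway, also called the MAPK pathway, in RKO cells. They were the dual-specificity phosphatases DUSP4, DUSP5 and DUSP6, the inhibitors SPRY2, SPRY4 and SPRED1, the ETS transcription factors ETV4 and ETV5, PHLDA1 and the receptor EGFR. They were chosen by name, as output or feedback genes of ERK signalling, and were 10 of the 58735 genes in the table. RKO is an established human colorectal carcinoma line that carries an activating mutation of BRAF, the kinase that phosphorylates MEK. RNA was sequenced from 3 libraries of RKO cells labelled Negative control (called Vector here) and 3 libraries labelled LOC101927668 overexpression (LOC_OE), and the series describes those of each group as biological replicates. LOC101927668 is a long non-coding RNA, and the comparison asks which mRNAs differ in abundance when it is overexpressed. By the study's methods, the full-length transcript was delivered with a lentivirus and cells were selected with puromycin, so that each arm was a selected population of stable cells. Both arms were grown in DMEM with fetal bovine serum, and no inhibitor or growth factor treatment is given in the labels.

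ERK is the last kinase of the cascade, and its activity is held in check by genes that it switches on itself. DUSP6 removes the activating phosphates from ERK in the cytoplasm, while DUSP4 and DUSP5 do so in the nucleus. Sprouty and Spred proteins restrain the pathway at the level of RAS and RAF, and the ETS factors ETV4 and ETV5 carry the signal on to further target genes. For this reason the mRNAs of these genes are widely used as a readout of how active ERK is in tumour cells with mutant BRAF or RAS. The mRNA of a gene says nothing of the phosphorylation of ERK, which was not measured in these files.

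Expression was given as FPKM, which counts fragments per kilobase of a gene and per unit of sequencing, so that levels of different genes can be set beside each other. The gene length behind these values matched that of all annotated exons merged, so an order between genes also depends on the annotation. Between 15008842 and 18410231 reads on genes stood behind each library, and the members held between 53 and 9925 reads in any library. LOC101927668 itself was found in 1, 1 and 0 reads in the Vector libraries and in 231, 270 and 276 reads in the LOC_OE libraries. The epithelial genes EPCAM, KRT8 and KRT18 and the intestinal factor CDX2 were expressed, whereas CDH1 was at 0 in every library and KRT19, VIL1 and LGALS4 were at or near 0. KRT20, a marker of differentiated colonocytes, was between 0.173 and 0.262 FPKM in Vector and at 0 in LOC_OE. Markers of fibroblasts, leukocytes and endothelium reached at most 0.142 FPKM. LOC_OE replicate 1 stood somewhat apart, with a correlation of 0.967 and 0.962 with the other LOC_OE libraries, which correlated at 0.982 with each other (Pearson's r over the tested genes on log2(FPKM + 1)). The Vector libraries correlated between 0.982 and 0.983.

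Differences were tested with limma on log2(FPKM + 1) in 1 fit over 16061 genes, with p-values adjusted by the Benjamini-Hochberg method over all of them. A gene was called when its adjusted p was under 0.05 and its fold change at least 1.5. All 10 members passed the filter on low values, and 0 of the 10 were called, against 4.63% of all tested genes called higher and 5.58% called lower in LOC_OE. At an adjusted p under 0.05 with any fold change, 1 member passed, SPRY4, which was higher in LOC_OE. Of all tested genes, 10.7% passed that criterion as higher and 9.74% as lower. With limma voom on the reads recovered from the FPKM, 4 members had an adjusted p under 0.05, which were SPRY4, ETV4, DUSP4 and DUSP6. In that fit 26.9% of all genes had an adjusted p under 0.05. Of the 4 members 1, DUSP4, was called lower, while 1736 of all 15798 genes in that fit were called lower. The Vector and LOC_OE ranges did not overlap for 5 of the 10 members, 3 of them higher and 2 lower in LOC_OE, compared with 45.3% of all tested genes. The median log2 fold change of the members was 0.020, beside 0.019 for all tested genes, with 5 members above 0 and 5 below. In bulk RNA, fewer cells of a type and less RNA per cell cannot be told apart.

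**Figure D1:**
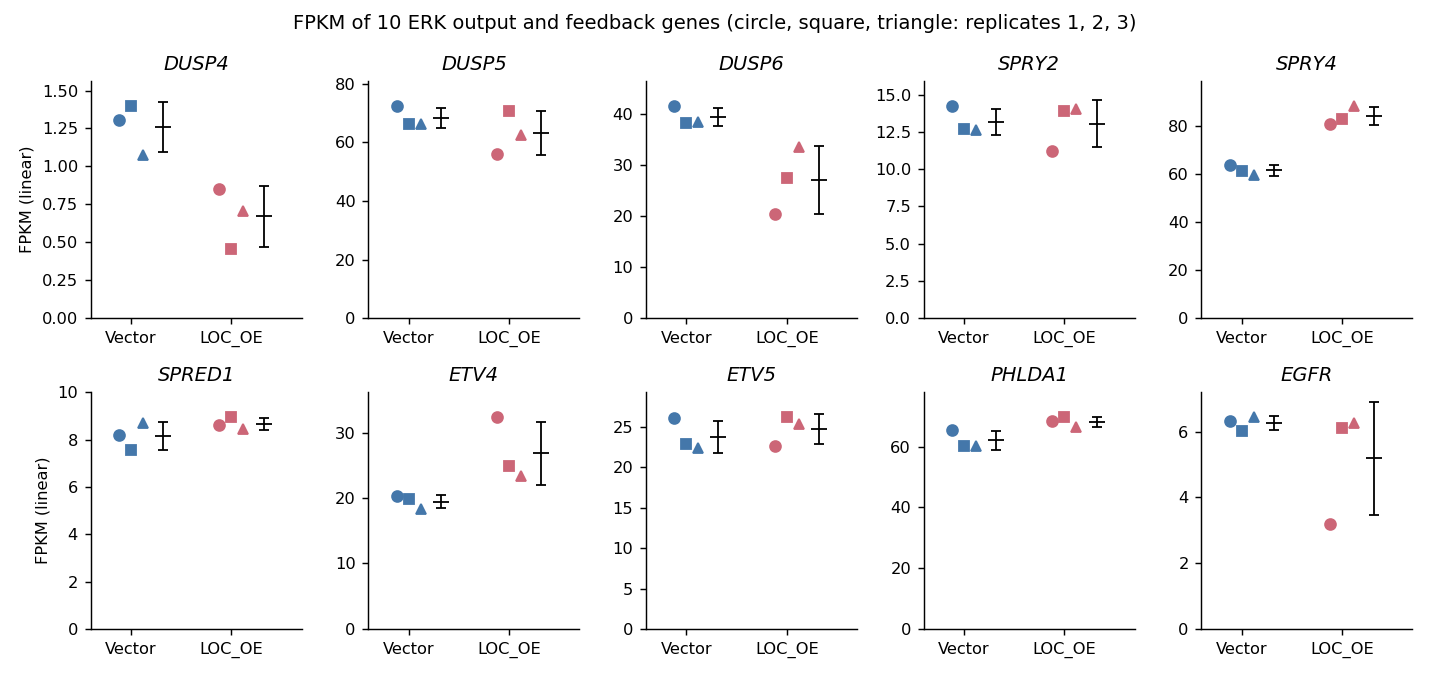
FPKM on a linear axis (y) of each member in the 3 Vector and 3 LOC_OE libraries (x), with the mean and SD beside the points of each group and the replicates marked by shape. The LOC_OE points lie above all Vector points for SPRY4, ETV4 and PHLDA1, and below them for DUSP4 and DUSP6.

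The members spanned a wide range of levels in control cells. In Vector libraries the mean FPKM was highest for DUSP5, followed by PHLDA1, SPRY4, DUSP6, ETV5, ETV4, SPRY2, SPRED1, EGFR and DUSP4. The ranges over the 3 libraries overlapped between neighbours of this order only for PHLDA1 and SPRY4. DUSP5, at the 97.3 percentile of mean Vector FPKM among tested genes, and DUSP4, at the 21.2 percentile, were the ends of the order. In LOC_OE libraries SPRY4 was first, before PHLDA1 and DUSP5, and the last 4 places were unchanged. PHLDA1 and DUSP5 overlapped there, as did DUSP6 with ETV4 and ETV4 with ETV5. DUSP6 went from the 94.5 to the 88.8 percentile of the tested genes, while ETV4 went from the 85.7 to the 88.6 percentile.

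SPRY4 is a Sprouty protein induced by ERK that restrains signalling from receptor tyrosine kinases. It was the member that was higher with an adjusted p under 0.05 in limma. By size it did not stand alone, since the log2 fold change of ETV4 was 0.43 (limma adjusted p = 0.0641). ETV4 and PHLDA1 were also higher in LOC_OE without overlap of the groups, PHLDA1 by only 0.14 on the log2 scale. The FPKM of SPRY4 was 63.8, 61.2 and 59.6 in the Vector libraries and 81.0, 83.0 and 88.2 in the LOC_OE libraries. The 3 LOC_OE libraries lay above all Vector libraries, and the spread inside each group was small, with 61.5 ± 2.13 in Vector and 84.0 ± 3.70 in LOC_OE (mean ± SD, n = 3). The mean FPKM was 36.6% higher in LOC_OE. The log2 fold change was 0.44 with an SE of 0.080, and the adjusted p was 0.0157 in limma. This corresponded to a 1.36-fold difference with a 95% interval of 1.19 to 1.55, so that the estimate lay under the 1.5-fold threshold. Between 7282 and 8734 reads lay behind each value, and SPRY4 shared 0 exonic bases with its antisense gene SPRY4-AS1. With 1 library left out, the log2 fold change stayed between 0.41 and 0.47, but the adjusted p was under 0.05 in 2 of 6 such fits, those without LOC_OE replicate 1 (0.00255) and without LOC_OE replicate 3 (0.0441). It was 0.0607, 0.0877 and 0.0809 without Vector replicates 1, 2 and 3, and 0.0521 without LOC_OE replicate 2. After rescaling of the libraries to the same sum of FPKM, which put the median over the 16061 genes at −0.18, the SPRY4 value was 0.18 (adjusted p = 0.223), or 0.36 relative to that median. With quantile normalization it was 0.17 (adjusted p = 0.376).

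SPRY2 and SPRED1, which restrain the same pathway, gave other values. The FPKM of SPRY2 was 14.2, 12.7 and 12.6 in Vector and 11.2, 13.9 and 14.0 in LOC_OE. The groups overlapped, and LOC_OE replicate 1 was the lowest of the 6 libraries. For SPRY2 the log2 fold change was −0.015 (95% interval −0.28 to 0.25, limma adjusted p = 0.934), and 0.083 without LOC_OE replicate 1. SPRED1, which binds neurofibromin and brings it to RAS at the membrane, had an FPKM of 8.19, 7.56 and 8.72 in Vector and 8.62, 8.95 and 8.46 in LOC_OE. Its groups also overlapped, and the log2 fold change was 0.082 (−0.11 to 0.28, limma adjusted p = 0.508). For both genes the 95% interval lay wholly inside a 1.5-fold change in either direction. The ratio of SPRY4 to SPRY2 within a library does not depend on how libraries are scaled. It was 4.49, 4.82 and 4.73 in Vector and 7.22, 5.96 and 6.28 in LOC_OE, so the lowest LOC_OE ratio was above the highest Vector ratio.

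DUSP6, the cytoplasmic phosphatase of ERK, was lower in LOC_OE without passing the test. Its FPKM was 41.5, 38.3 and 38.5 in the Vector libraries and 20.3, 27.5 and 33.6 in the LOC_OE libraries. The highest LOC_OE library lay below the lowest Vector library, but the LOC_OE libraries differed more among themselves, with 39.4 ± 1.81 in Vector against 27.2 ± 6.65 in LOC_OE (mean ± SD, n = 3). The log2 fold change was −0.55 (SE 0.18, 95% interval −0.97 to −0.13), with an adjusted p of 0.0714 in limma. LOC_OE replicate 1 was the lowest library, and without it the log2 fold change was −0.36 with a limma adjusted p of 0.0290. Without LOC_OE replicate 3 it was −0.71, with an adjusted p of 0.0382 in limma. In voom it was −0.58, with an adjusted p of 0.0431. The limma adjusted p was 0.191, 0.176 and 0.169 without Vector replicates 1, 2 and 3, and 0.134 without LOC_OE replicate 2. Leaving out LOC_OE replicate 1 also moved the share of all tested genes with an adjusted p under 0.05 from 20.4% to 35.5%. An antisense gene, AC024909.2, shares 1875 exonic bases with DUSP6, which are 40.5% of its exonic length, and the strand of the reads was not stated, so reads of the 2 genes cannot be told apart there. The antisense gene was assigned 10 to 18 reads in a library, against 1509 to 3609 for DUSP6.

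The promoters of DUSP6 and SPRY4 are shown because these genes, each a feedback inhibitor read as ERK output, differed in opposite directions. The sequences are the 250 bases before the transcription start in RefSeq on GRCh38.p14, written 5′ to 3′ on the minus strand, at chr12:89352502-89352751 for DUSP6 and at chr5:142324248-142324497 for SPRY4. Capitals mark GGAA, the core of sites bound by ETS factors, on either strand (TTCC where it lies on the other strand).
DUSP6: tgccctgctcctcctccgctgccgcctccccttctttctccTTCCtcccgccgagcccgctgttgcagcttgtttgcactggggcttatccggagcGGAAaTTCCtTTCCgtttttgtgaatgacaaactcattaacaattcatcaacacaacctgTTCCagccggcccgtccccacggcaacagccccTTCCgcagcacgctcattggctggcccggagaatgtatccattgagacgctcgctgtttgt
SPRY4: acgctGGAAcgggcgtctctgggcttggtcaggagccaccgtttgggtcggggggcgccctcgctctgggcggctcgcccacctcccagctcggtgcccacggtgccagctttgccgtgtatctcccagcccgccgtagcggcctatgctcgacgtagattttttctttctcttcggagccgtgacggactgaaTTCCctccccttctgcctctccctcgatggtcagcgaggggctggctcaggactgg
In the window of 300 bases that also holds the first 50 bases of the transcript, the core was found 6 times for DUSP6 and 4 times for SPRY4, of which 2 lie in the part shown. The core is common, since 95.5% of 35116 promoters of the same length hold it. A longer ETS letter string, CCGGAAGT on either strand, was in 4.14% of all promoters, the cAMP response element TGACGTCA in 1.85% and the CArG box, the site of SRF, in 1.29%. None of these 3 strings was found in the 9 windows of the 6 members that had a RefSeq promoter. TGANTCA, the letters of the AP-1 site, was in 7.71% of all promoters and in 1 member window, of EGFR. A match of letters is a description of the window and not a measured site.

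SPRY4 and DUSP6 were also set against each other within a library. The ratio of SPRY4 to DUSP6 FPKM was 1.54, 1.60 and 1.55 in the Vector libraries and 3.98, 3.02 and 2.62 in the LOC_OE libraries. Every LOC_OE ratio was above every Vector ratio, and the mean ratio was 2.05 times as high, at 1.56 ± 0.0322 in Vector and 3.21 ± 0.699 in LOC_OE (mean ± SD, n = 3). This pair was chosen after the values were seen. SPRY4 was higher and DUSP6 lower in every LOC_OE library, so ratios without overlap followed from the choice. The other ratios given here were not fixed in advance either. An exact permutation test on log2 ratios gave p = 0.1 for each, the smallest value possible with 3 against 3 libraries. For pairs picked in this way that p-value is no support for a difference.

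DUSP5, the nuclear phosphatase of ERK with the highest level in control cells, had an FPKM of 72.3, 66.4 and 66.3 in Vector and 56.2, 70.9 and 62.5 in LOC_OE. The groups overlapped, and LOC_OE replicate 1 was again the lowest library. Its log2 fold change was −0.12 (95% interval −0.37 to 0.14, limma adjusted p = 0.480), an interval inside a 1.5-fold change, and −0.035 without LOC_OE replicate 1. The ratio of DUSP6 to DUSP5 was between 0.575 and 0.581 in the Vector libraries and was 0.362, 0.388 and 0.538 in the LOC_OE libraries, so the control libraries held this ratio within a narrow band and every LOC_OE library lay below it.

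DUSP4, a nuclear phosphatase of ERK and of the stress kinases, was the member at the lowest level. Its FPKM was 1.31, 1.40 and 1.07 in Vector and 0.852, 0.455 and 0.703 in LOC_OE, from 178, 188 and 145 reads against 99, 53 and 75 reads. All LOC_OE libraries lay below all Vector libraries, and the ratio of the mean FPKM was 0.532. On the log2(FPKM + 1) scale the fold change was −0.44 (SE 0.13, 95% interval −0.76 to −0.12, limma adjusted p = 0.0634). This scale understates the change of genes near 1 FPKM, and on the recovered reads voom gave −0.96 with an adjusted p of 0.0215. Without LOC_OE replicate 1 the log2 fold change was −0.52, with an adjusted p of 0.0316 in limma. The limma adjusted p was 0.167, 0.200 and 0.116 without Vector replicates 1, 2 and 3, and 0.142 and 0.107 without LOC_OE replicates 2 and 3. Of 8 other alternatives, voom included, 4 had an adjusted p under 0.05, and with quantile normalization it was 0.163. LOC_OE replicate 2, not replicate 1, was the lowest library for this gene.

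**Figure D2:**
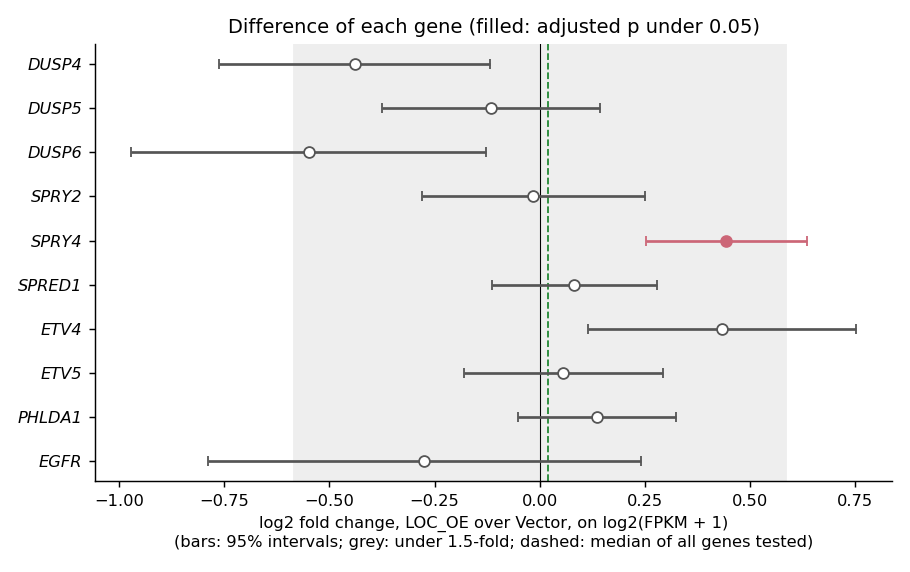
Log2 fold change of LOC_OE over Vector on log2(FPKM + 1) (x) for each member (y), with 95% intervals from limma, the band under 1.5-fold in grey and the median of all tested genes dashed. SPRY4, filled, was the member with an adjusted p under 0.05, and the intervals of ETV4, DUSP4 and DUSP6 also leave out 0.

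ETV4 and ETV5 are closely related ETS factors of the PEA3 group, transcribed in response to ERK. The FPKM of ETV4 was 20.2, 19.8 and 18.3 in Vector and 32.3, 24.9 and 23.3 in LOC_OE. The groups did not overlap, and the highest of the 6 values was that of LOC_OE replicate 1. The mean was 19.4 ± 1.00 in Vector and 26.8 ± 4.83 in LOC_OE (mean ± SD, n = 3), and the log2 fold change was 0.43 (SE 0.13, 95% interval 0.11 to 0.75, limma adjusted p = 0.0641). Without LOC_OE replicate 1 the estimate was 0.30 and the limma adjusted p 0.0156. The limma adjusted p was 0.142, 0.171 and 0.192 without Vector replicates 1, 2 and 3, and 0.105 and 0.0580 without LOC_OE replicates 2 and 3. At the same sum of FPKM the log2 fold change was 0.18 (limma adjusted p = 0.156), or 0.36 relative to the median of all tested genes. In voom the log2 fold change was 0.44, with an adjusted p of 0.0383. ETV4 overlaps DHX8 on the opposite strand by 68 exonic bases, 1.89% of the exonic length of ETV4.

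ETV5 had an FPKM of 26.1, 22.9 and 22.4 in Vector and 22.6, 26.2 and 25.4 in LOC_OE. The groups overlapped, and the log2 fold change was 0.056 (95% interval −0.18 to 0.29, limma adjusted p = 0.717), inside a 1.5-fold change, and 0.12 without LOC_OE replicate 1. The ratio of ETV4 to ETV5 within a library was 0.775, 0.865 and 0.818 in Vector and 1.43, 0.95 and 0.916 in LOC_OE. The LOC_OE ratios were all above the Vector ratios, and LOC_OE replicate 1 was the library in which ETV4 exceeded ETV5.

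PHLDA1, a pleckstrin homology-like domain protein induced by ERK, had an FPKM of 65.6, 60.3 and 60.4 in Vector and 68.6, 69.7 and 66.5 in LOC_OE. Every LOC_OE library lay above every Vector library, with means of 62.1 ± 3.01 and 68.3 ± 1.65 (SD, n = 3), although the gap was small. The log2 fold change was 0.14 (95% interval −0.053 to 0.32, limma adjusted p = 0.263), inside a 1.5-fold change. Its sign turned under both other scalings, to −0.12 at the same sum of FPKM and −0.14 after quantile normalization. Many ERK-induced mRNAs are short-lived and carry AU-rich elements in the 3′UTR, and the nonamer TTATTTATT is the strict form of that element. It was searched on the mRNA strand only and was found in the 3′UTR of 2 of the 10 members, DUSP4 and PHLDA1, and in 9.25% of 11230 tested genes with a 3′UTR of their own. The PHLDA1 element is in capitals within 29 bases of the mRNA strand, and its capitals start at position 314 of the 3′UTR in GENCODE version 29. It is shown because DUSP4 and PHLDA1 carry the same letters and had log2 fold changes of opposite sign.
PHLDA1: tgatttatgaTTATTTATTagtttttttt

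EGFR, the receptor upstream of RAS, whose output is limited by ERK feedback in BRAF-mutant colorectal cells, had an FPKM of 6.33, 6.03 and 6.44 in Vector. In LOC_OE it was 3.20, 6.10 and 6.25. A single library, LOC_OE replicate 1, was low, while the other two lay inside the Vector range. The log2 fold change was −0.27 (SE 0.21, 95% interval −0.79 to 0.24, limma adjusted p = 0.399) with all libraries and −0.018 without LOC_OE replicate 1 (limma adjusted p = 0.838). Here the lower mean of LOC_OE, at 5.18 ± 1.72 against 6.26 ± 0.214 in Vector (mean ± SD, n = 3), was the value of 1 library.

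LOC_OE replicate 1 was the lowest of the 6 libraries for 4 members, DUSP5, DUSP6, SPRY2 and EGFR, and the highest for ETV4. Its log2(FPKM + 1) differed from the mean of the other two LOC_OE libraries by −0.77 for EGFR, −0.56 for DUSP6 and 0.41 for ETV4, and by −0.077 for SPRY4. Over all tested genes the median of this difference varied between classes of exonic length, without a steady trend. It was 0.013 for 4880 genes up to 2000 bases, 0.14 for 3605 genes of 2000 to 4000 bases and −0.13 for 2486 genes above 8000 bases. For Vector replicate 1 against the other Vector libraries it was 0.052 for 2000 to 4000 bases and −0.016 above 8000 bases. EGFR has 12521 exonic bases and ETV4 has 3607, but DUSP6, with 4632, falls in the class of 4000 to 8000 bases, whose median was 0.026. The part of exonic length in the member values was not tested.

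**Figure D3:**
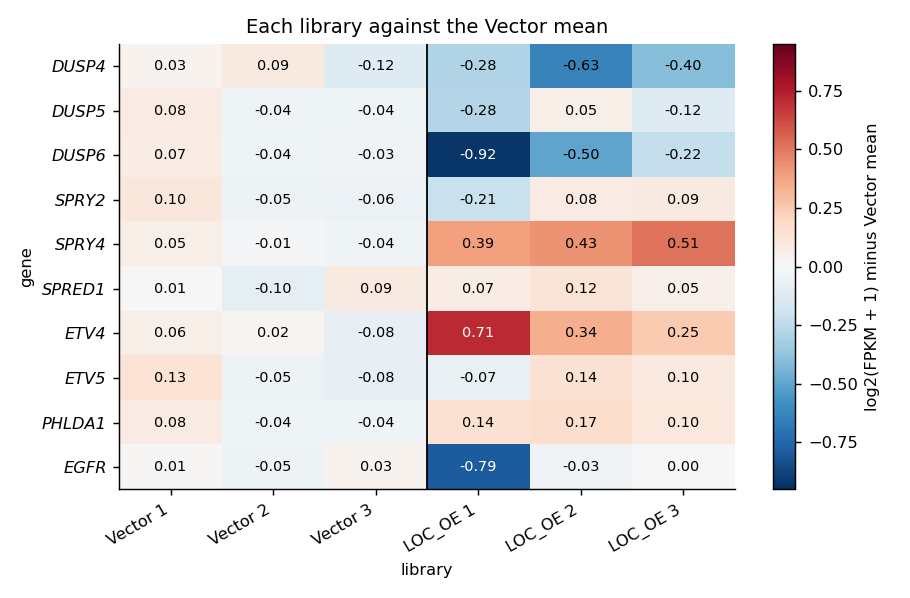
Log2(FPKM + 1) of each member (y) in each library (x) minus the mean of the Vector libraries, as colour and as the printed value. The SPRY4 row is positive in all 3 LOC_OE libraries (0.39, 0.43 and 0.51), while the EGFR row is far below 0 in LOC_OE replicate 1 only.

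The rest of the pathway was read from 5 lists with 86 genes, of which 74 passed the filter. Of these 74, 3 were called higher and 5 lower in LOC_OE, and 8 in each direction had an adjusted p under 0.05 at any fold change in limma. These were 4.05% called higher, 6.76% called lower and 10.8% in each direction at any fold change, near the shares of all tested genes (4.63%, 5.58%, 10.7% and 9.74%). The median log2 fold change was 0.043.

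Other output and feedback genes held most of the calls, with 3 higher and 2 lower among 20 tested. These were 15% and 10% of the list, against 4.63% and 5.58% of all tested genes, and the list was not tested as a set. IER3, an immediate early gene of ERK, rose from 25.3 ± 2.09 to 54.7 ± 9.34 FPKM (mean ± SD, n = 3), a log2 fold change of 1.07 (SE 0.14, limma adjusted p = 0.00799). PLAUR, the urokinase receptor, rose from 27.9 ± 1.21 to 47.4 ± 2.60 FPKM, by 0.74 on the log2 scale (SE 0.082, limma adjusted p = 0.00569). DUSP2, a nuclear phosphatase of ERK, rose from 5.34 ± 1.43 to 13.4 ± 5.57 FPKM, with a log2 fold change of 1.14 (SE 0.29, limma adjusted p = 0.0387). Without LOC_OE replicate 1 the DUSP2 value was 0.84. It kept an adjusted p under 0.05 in 2 of the 6 fits with 1 library left out, and was 0.0789, 0.116, 0.122 and 0.0667 without Vector replicates 1, 2 and 3 and LOC_OE replicate 2, and 0.0858 without the filter on low FPKM. The phosphatases DUSP1 and DUSP10, which act mainly on the stress kinases p38 and JNK, fell. DUSP1 went from 12.8 ± 0.383 to 7.03 ± 0.958 FPKM, a log2 fold change of −0.79 (SE 0.10, limma adjusted p = 0.00775). DUSP10 went from 2.31 ± 0.377 to 0.761 ± 0.153 FPKM, a log2 fold change of −0.91 (SE 0.13, limma adjusted p = 0.00877). Without Vector replicate 2 the adjusted p of IER3 was 0.0535 and that of DUSP1 0.0538 in limma. With the filter on low values applied anew to the remaining libraries, the limma adjusted p was also above 0.05 for PLAUR without Vector replicate 2 (0.0508), for IER3 without Vector replicate 3 (0.0509), and for DUSP10 without Vector replicate 2 (0.0514) or 3 (0.0508). The dual-specificity phosphatases thus held values in both directions, with DUSP2 higher, DUSP1 and DUSP10 lower and DUSP4, DUSP5 and DUSP6 not past the test.

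The receptors and their ligands lay mostly on the lower side, with 11 of 12 tested genes below 0 (91.7%, against 48.0% of all tested genes), a median log2 fold change of −0.41, 2 genes called lower and 0 called higher in limma. The genes called lower were 16.7% of the list, against 5.58% of all tested genes, and the list was not tested as a set. MET was the gene above 0, with 22.2, 21.4 and 22.6 FPKM in Vector and 18.9, 40.0 and 37.9 FPKM in LOC_OE. Its log2 fold change was 0.46 (limma adjusted p = 0.275). HBEGF, a ligand of EGFR shed from the cell surface, had 14.7, 12.1 and 13.5 FPKM in Vector and 3.37, 5.58 and 5.66 FPKM in LOC_OE. The groups were far apart, and HBEGF fell by 1.32 on the log2 scale (SE 0.18, limma adjusted p = 0.00858). FGFR4, a receptor for fibroblast growth factors, had 8.26, 7.25 and 7.20 FPKM in Vector and 4.27, 4.21 and 4.07 FPKM in LOC_OE, and fell by 0.72 (SE 0.083, limma adjusted p = 0.00633). Both kept an adjusted p under 0.05 in all 6 fits with 1 library left out. The receptor FGFR2 (−0.56, adjusted p = 0.0141) and the EGFR ligand AREG (−0.49, adjusted p = 0.0373) were also lower in limma, by less than 1.5-fold on this scale. It understates changes near 1 FPKM, and their ratios of mean FPKM were 0.475 and 0.421. These 2 genes were named after their values were seen, as were MET, KSR1, LAMTOR3, PTPN11, SOCS3 and ETS2. AREG passed the filter on low values through Vector alone, since every LOC_OE library lay under 0.5 FPKM for it. It was thus selected for being high in Vector, and its adjusted p does not settle whether it fell. Its depth was low, from 26 to 36 reads per Vector library down to 9 to 13 per LOC_OE library. AREG is also 1 of the 11 genes below 0.

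In the cascade itself 0 of 15 tested genes were called in limma, while 3 had an adjusted p under 0.05, the scaffolds KSR1 and LAMTOR3 among them. Of all tested genes, 4.63% were called higher and 5.58% lower, and 20.4% had an adjusted p under 0.05. KSR1 fell by 0.53 (limma adjusted p = 0.0148) and LAMTOR3 rose by 0.37 (limma adjusted p = 0.0196). The mean FPKM of KSR1 was 2.10 in Vector and 1.15 in LOC_OE, a ratio of 0.549, which the log2(FPKM + 1) scale understates. MAPK3, which encodes ERK1, had 30.7, 27.5 and 28.1 FPKM in Vector and 26.2, 19.7 and 18.9 FPKM in LOC_OE, lower in each LOC_OE library, but did not pass the test (−0.41, limma adjusted p = 0.0768). With 1 library left out it passed in 1 of 6 fits, that without LOC_OE replicate 1 (−0.55, limma adjusted p = 0.00240), and the adjusted p reached 0.211. It passed in 4 of 9 other alternatives, and the adjusted p reached 0.132 in the rest. These 4 were the same sum of FPKM (−0.66, 0.00486), quantile normalization (−0.61, 0.00523), array weights (−0.51, 0.000574) and voom (−0.44, 0.0370). Of all tested genes, 35.5% passed without LOC_OE replicate 1 and 50.3% with array weights. BRAF, the mutated kinase of this line, stood at 3.38 ± 0.188 and 3.25 ± 0.650 FPKM (log2 fold change −0.057, limma adjusted p = 0.786). The values were 0.27 for NRAS (0.0930), 0.59 for HRAS (0.177), 0.047 for MAP2K1 (0.768) and −0.14 for MAP2K2 (0.553), with the limma adjusted p in parentheses. HRAS was at 28.9 FPKM in LOC_OE replicate 1 and at 15.8 and 13.0 in the other two, and its value without that library was 0.26 (limma adjusted p = 0.122). NRAS was 0.19 without it (limma adjusted p = 0.0366), BRAF 0.076, MAP2K1 −0.047 and MAP2K2 −0.28.

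Among the adaptors and brakes near the receptor 0 of 15 were called in limma, and 2 had an adjusted p under 0.05, the phosphatase PTPN11 (log2 fold change 0.36, adjusted p = 0.0281) and SOCS3 (0.40, adjusted p = 0.0320). Of all tested genes, 4.63% were called higher and 5.58% lower. An adjusted p under 0.05 as higher was held by 13.3% of the adaptors and brakes and by 10.7% of all tested genes. Among the effectors 1 of 12 was called, as lower (8.33%, against 5.58% of all tested genes). CIC, the repressor of ETV4, ETV5 and other target genes that ERK relieves, had 15.9, 16.9 and 14.8 FPKM in Vector and 10.6, 8.60 and 8.66 FPKM in LOC_OE. The groups did not overlap, and CIC fell by 0.72 on the log2 scale (SE 0.11, limma adjusted p = 0.00972). Without Vector replicate 1 or 2 its adjusted p was 0.0510 and 0.0618 in limma. ETS2 rose by 0.45 (limma adjusted p = 0.0342).

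**Figure D4:**
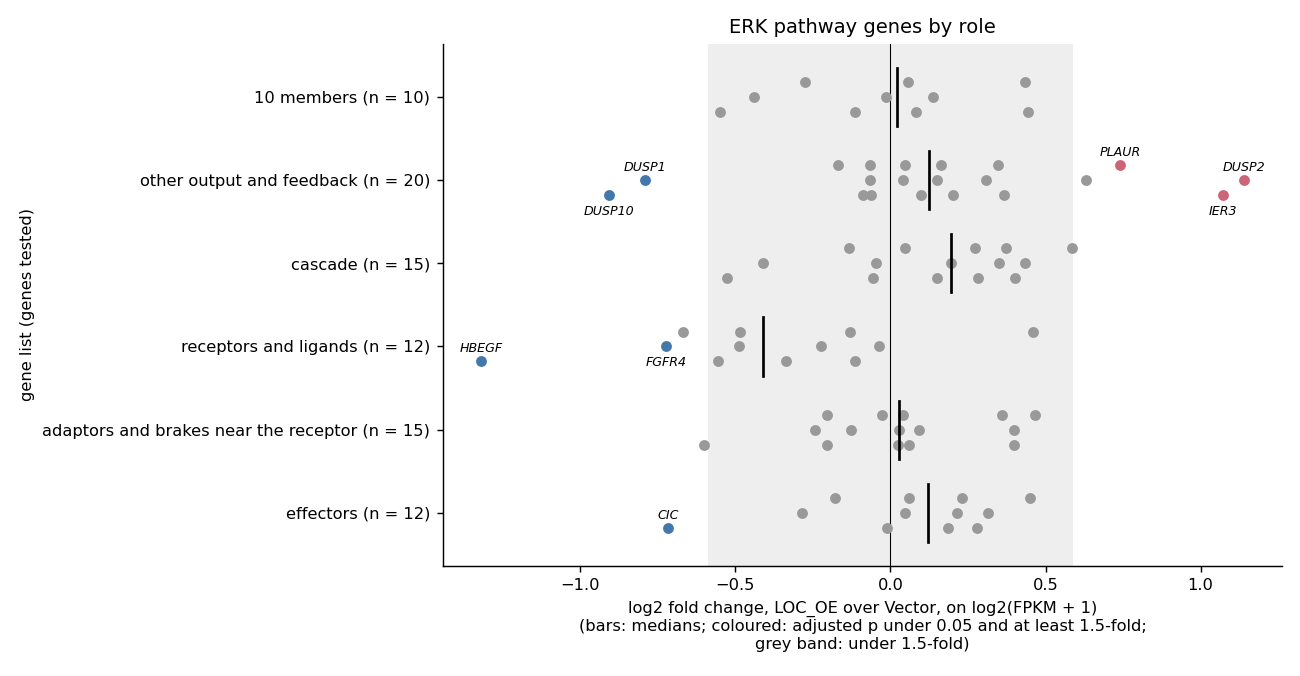
Log2 fold change of LOC_OE over Vector on log2(FPKM + 1) (x) of every tested gene of the members and of 5 pathway lists (y), with list medians as bars and called genes coloured and named. The receptors and ligands have the lowest median (−0.41), and the called genes of the output and feedback list lie on both sides of 0.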

How the data were processed

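The authors sequenced RNA from 3 Vector and 3 LOC_OE libraries of RKO cells and deposited 1 table of FPKM values, with 0 columns unused here. The submitters' processing notes name HISAT2 2.0.4, StringTie 1.3.0 and hg38, and the annotation, strand and differential expression test are not given in the sources used here. All 58735 gene identifiers matched GENCODE version 29. FPKM times merged exon length gave whole reads for 100% of the values (within 0.01 read), 15008842 to 18410231 per library, and the libraries were already scaled by median of ratios. Genes that reached 0.5 FPKM in 3 or more libraries were tested with limma 3.58.1 in R 4.3.3 on log2(FPKM + 1) with a variance trend, a step also tested on simulated data. The test measures the spread between these libraries. Voom used genes with at least 10 reads in at least 3 libraries.

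Members and lists were chosen with earlier results of these data known. Named are all members, up to 5 called genes per pathway list and direction, and fixed genes of the cascade, apart from some that are not reported here. The alternatives were a pseudocount of 0.1, other filters, scalings, variance models and fold thresholds, a replicate block, voom, and leaving out each library with the tested genes kept or filtered anew. Leaving out a library was first run with the filter applied anew, and the version with the tested genes kept, whose values are printed unless stated otherwise, was chosen after seeing the data of both. Counts of reads cover counting error only. Groups of 3 are too small for a screen of single outlying libraries.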

Additional observations from a re-analysis of the deposited data

How the results depend on the processing

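Of 359 values of 24 named genes under the alternatives, 303 kept their direction and side of an adjusted p of 0.05, 24 passed it newly, 15 no longer passed and 17 changed sign. All sign changes were of genes that did not pass the test, and the cause was not tested. At the same sum of FPKM the log2 fold changes were −0.15 for SPRED1, −0.20 for ETV5, −0.12 for PHLDA1 and −0.21 for MAP2K1. With quantile normalization they were −0.13 for ETV5, −0.14 for PHLDA1, 0.016 for BRAF and −0.15 for MAP2K1. With array weights they were 0.037 for DUSP5, 0.087 for SPRY2, 0.092 for BRAF and −0.042 for MAP2K1. With 1 library left out they ranged from −0.067 to 0.083 for SPRY2 (0.037 without Vector replicate 1 and 0.083 without LOC_OE replicate 1), from −0.14 to 0.076 for BRAF, from −0.047 to 0.096 for MAP2K1 (both past 0 without LOC_OE replicate 1) and from −0.28 to 0.0088 for MAP2K2 (above 0 without LOC_OE replicate 3). The members called lower were 1 instead of 0 at the same sum of FPKM, with array weights and with voom, and 0 to 1 with 1 library left out (1 without LOC_OE replicate 3), while 1 was called higher without a fold threshold. Members with an adjusted p under 0.05 numbered 5 of 10 with array weights, a setting in which 50.3% of all tested genes passed. The other pathway genes called lower were 8 with a pseudocount of 0.1, 10 at the same sum, 9 in voom, 1 at a fold of 2 and 8 without a fold threshold. Those called higher were 7 with array weights and 8 without a fold threshold. With 1 library left out they were 1 to 6 higher and 3 to 6 lower, and 0 to 6 higher and 2 to 6 lower with the filter applied anew. Of all tested genes, 743 were called higher and 896 lower. These were 261 and 1787 at the same sum, 126 and 237 at a fold of 2, and 1712 and 1565 without a fold threshold, and voom called 1736 lower. With 1 library left out they were 144 to 747 higher and 227 to 938 lower (lowest without Vector replicate 2), and 101 to 754 and 148 to 946 with the filter applied anew, the version run first. Same-numbered libraries deviated together with r = 0.111, −0.034 and 0.116, so the numbers were not taken as pairs. With the replicate block 0 members were called in either direction, 4 other pathway genes higher and 5 lower, and 696 and 739 of all genes, and SPRY4 kept an adjusted p of 0.0465. Among the members depth limits DUSP4 most, at 53 to 188 reads.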

Other observations

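LOC_OE replicate 1 also differed from the other two LOC_OE libraries in further receptor pathway genes, named after their values were seen. Its log2(FPKM + 1) was lower than their mean by −1.39 for ERRFI1, a feedback inhibitor of EGFR, by −1.09 for IGF1R, by −1.01 for MET and by −0.85 for the ubiquitin ligase CBLB. It was higher by 0.96 for HRAS, 0.90 for DUSP2 and 0.78 for ARAF. None of these 7 differences has a replicate of its own, and they were not tested.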
